A study of Danio rerio with 9 samples.

Results

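The corticotropin releasing hormone (CRH) system was described through 6 zebrafish genes chosen by symbol, crhr2, crhr1, crhb, uts1, crhbp and pomca, and all 6 were among the 24614 genes of the deposited table. The set was built around crhr2, which had been picked because its level differed between dhps morpholino and control morpholino embryos. Its values in that comparison are therefore given as a description with no test, and the same holds for eif5a1/2 against dhps, which uses the same dhps libraries. RNA had been taken from whole embryos, 24 hours after injection by the protocol notes and at 24 hours of age (from fertilization) by the design text. There were 3 groups of 3 libraries, from embryos given a morpholino against dhps, a morpholino against eif5a1/2, or a control morpholino. No other allele or agent is named in the labels, and all embryos, controls included, had received a morpholino.

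A morpholino is an antisense oligomer that blocks either translation or splicing of its target, and the sources used here do not say which kind was injected. The gene dhps encodes deoxyhypusine synthase, the enzyme that starts the hypusine modification of the translation factor eIF5A. Per the title of the series, it asks whether the modified and the unmodified factor act differently in the embryo. The labels do not say whether replicate libraries came from separate clutches, so p-values measure the spread between these samples, which may be technical. In whole embryos, fewer cells of a type and less RNA per cell cannot be told apart.

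In vertebrates the CRH system links the brain to the pituitary and the steroid-producing gland. CRH from hypothalamic neurons binds the receptor Crhr1 on pituitary cells that make proopiomelanocortin, the precursor of adrenocorticotropic hormone, and this hormone drives cortisol synthesis in the interrenal gland of fish. Crhr2, a related G protein-coupled receptor, prefers the urocortin peptides, and in mammals it is expressed in heart, muscle and brain regions outside the classical axis. Both receptors belong to the class B peptide hormone receptors and act mainly through Gs, adenylyl cyclase and cyclic AMP. The secreted protein Crhbp binds CRH and urocortin and limits their access to the receptors. The zebrafish interrenal response to stressors matures after hatching, later than the stage sampled.

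The libraries held 16779961 to 16893447 reads in dhps embryos, 15952644 to 17248752 in eif5a1/2 embryos and 16834136 to 17482536 in control embryos. A gene with 0 reads in a library can be limited to 3 reads, or 0.172 to 0.188 CPM (reads scaled to a common library size), for counting error only. This limit uses library totals alone, without the further scaling of the other CPM given below. As a check of the labels, eif5a averaged 1085 ± 30.6 CPM in dhps embryos, 227 ± 12.7 in eif5a1/2 embryos and 1363 ± 169 in control embryos (SD, n = 3 each), and its log2 fold change in eif5a1/2 against control was -2.59 (SE 0.152, edgeR's quasi-likelihood test, adjusted p = 0.000188). The related eif5a2 averaged 213 ± 67.7 CPM in eif5a1/2 embryos and 278 ± 79.8 in control embryos, a log2 fold change of -0.38 with an adjusted p of 0.722. The transcript of dhps averaged 9.38 ± 1.02 CPM in dhps embryos and 14.5 ± 1.35 in control embryos, a log2 fold change of -0.62 with an adjusted p of 0.0485. That call was kept in 2 of the 9 fits that left out 1 library, those without control 2 and without eif5a1/2 2. With library totals alone it was lost (-0.26, edgeR adjusted p = 0.45). It was also lost without the count filter, with a replicate block, with the compared groups fitted alone, in a robust fit and in limma-voom. In TPM, the authors' measure scaled by length and library, dhps was 5.01 to 6.83 in dhps embryos and 4.69 to 8.34 in control embryos, which overlap. A morpholino need not lower the level of its target transcript. The first principal component of the libraries, with 62.6% of the variance, did not follow the groups alone: dhps 1 to 3 stood at 58.7, 27.3 and 34.6, eif5a1/2 1 to 3 at -55.6, 59.2 and -21.4, and control 1 to 3 at -54.6, 24.4 and -72.6. Eif5a1/2 2 and control 2 thus lay with the dhps libraries. Values without either or both of these libraries are given beside some of the results, not all. Levels in CPM are scaled to the bulk of genes by the trimmed mean of M-values (TMM). With library totals alone the median gene shifted by 0.36 in dhps against control, 0.18 in eif5a1/2 against control and -0.19 in eif5a1/2 against dhps on the log2 scale.

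The receptor crhr2 was several times as high in dhps embryos as in the other groups. It had 1735, 858 and 1065 reads in dhps 1 to 3, 138, 319 and 245 reads in eif5a1/2 1 to 3, and 97, 231 and 68 reads in control 1 to 3. On the CPM scale this was 86.1, 45.8 and 55.8 in dhps embryos, 10.7, 14.95 and 15.4 in eif5a1/2 embryos, and 6.94, 12.1 and 5.28 in control embryos. Every dhps library lay above every other library, while eif5a1/2 and control embryos overlapped. The means were 62.6 ± 21.0 CPM in dhps embryos, 13.7 ± 2.60 in eif5a1/2 embryos and 8.11 ± 3.56 in control embryos (SD, n = 3 each).

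The fitted fold change of crhr2 in dhps against control was 7.61, or 2.93 on the log2 scale (SE 0.335), which placed it at rank 10 of the 17031 genes tested. Leaving out 1 library at a time gave 2.63 to 3.35, the lowest without dhps 1 and the highest without control 2. Without eif5a1/2 2 and control 2 together it was 3.35, and with a covariate for each library's length slope it was 2.54. Control 2, the control with the highest crhr2, is also the one that lay with the dhps libraries. Against it alone, dhps 1 to 3 were 7.11, 3.78 and 4.6 times as high in CPM. Against control 1 the same libraries were 12.4, 6.60 and 8.04 times as high, and against control 3 they were 16.3, 8.67 and 10.6 times as high. In this comparison edgeR's quasi-likelihood test called 226 of 17031 genes (1.33%), and 15.2% of genes had every dhps library above every control library. Since crhr2 was chosen from this contrast, its call here carries no weight beyond its size.

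Targeting the factor gave a smaller crhr2 difference, which did not pass the test. Its log2 fold change in eif5a1/2 against control was 0.74 (SE 0.329), a 1.67-fold difference with a 95% interval of -0.0655 to 1.54 on the log2 scale. EdgeR's quasi-likelihood test gave an unadjusted p of 0.0497 and an adjusted p of 0.547. A two-sided exact permutation test of the difference in mean CPM gave p = 0.2, where 0.1 is the smallest that 3 against 3 libraries allow. This comparison uses the control libraries of the contrast that chose crhr2, so it is not an independent one. Against control 2 the ratios of eif5a1/2 1 to 3 were 0.881, 1.23 and 1.27, against control 1 they were 1.54, 2.16 and 2.22, and against control 3 they were 2.02, 2.83 and 2.91. It was 1.16 without control 2, with an adjusted p of 0.215, and 0.51 without control 3, with an adjusted p of 1. Same-numbered eif5a1/2 and control libraries deviated together. The labels do not state that these libraries were paired, and the test above uses no pairing. Within the pairs 1, 2 and 3 the eif5a1/2 library was 1.54, 1.23 and 2.91 times the control library, and a paired fit of these groups alone gave 0.78 with an adjusted p of 0.0658. Adjusted p-values over all alternatives ran between 0.0658 and 1, so the difference passed the threshold in none of those run. In this comparison 26 of 17031 genes were called (0.153%), against 14 with the replicate number as a block in the fit to all libraries and 351 in the paired fit of these groups alone. Groups did not overlap for 12.4% of genes.

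Set side by side, eif5a1/2 embryos had less crhr2 than dhps embryos. The log2 fold change in eif5a1/2 against dhps was -2.19 (SE 0.321), a ratio of 0.219, given without a test. Each eif5a1/2 library lay below each dhps library, and the value stayed between -2.38 and -1.89 over all alternatives. Of the genes tested in this comparison, 1.83% were called and 10.1% had every eif5a1/2 library below every dhps library.

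Levels per length show the same order. In TPM, the authors' measure of transcripts scaled by length and library, crhr2 had 49.4, 23.0 and 29.1 in dhps embryos, 3.28, 9.15 and 6.02 in eif5a1/2 embryos, and 2.16, 5.94 and 1.43 in control embryos. Its share of the summed TPM of the 6 family genes measured (crhr2, crhr1, crhb, uts1, ucn3l and crhbp, without the pomc precursors) was 93.4%, 89.1% and 90.9% in dhps 1 to 3, 61.0%, 72.9% and 65.9% in eif5a1/2 1 to 3, and 55.2%, 68.5% and 44.1% in control 1 to 3. In dhps embryos crhr2 exceeded the TPM of 89.3% to 93.9% of all genes, against 73.3% to 77.9% in eif5a1/2 embryos and 64.3% to 75.0% in control embryos.

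**Figure D1:**
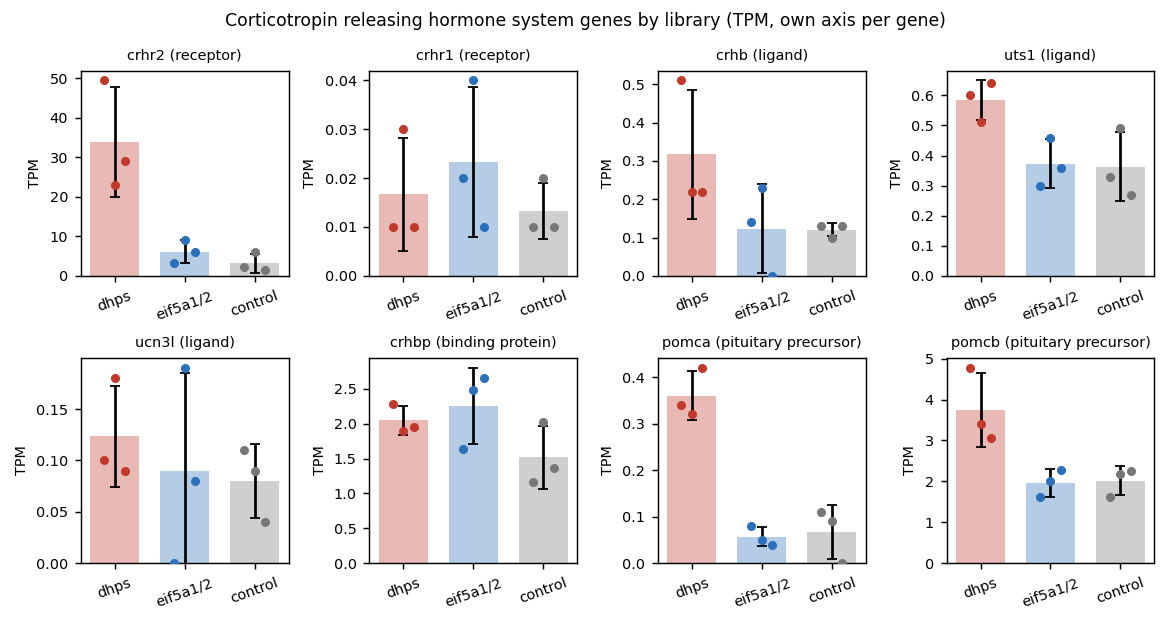
TPM of the 8 CRH system genes by library (points), with group means (bars) and SD (lines), n = 3 libraries in each of the dhps, eif5a1/2 and control groups, each gene on its own axis. The dhps libraries of crhr2 sit at 23.0 to 49.4 TPM, above all eif5a1/2 and control libraries, while crhr1 stays at or below 0.04 TPM in every library.

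The other receptor, crhr1, which mediates the pituitary response to CRH, was close to the limit of detection. It had 1, 3 and 1 reads in dhps embryos, 2, 4 and 1 in eif5a1/2 embryos, and 1, 2 and 2 in control embryos. All 3 groups overlapped, at 0.01 to 0.04 TPM. With so few reads crhr1 did not pass the filter on low counts, and nor did crhb and pomca, so 3 of the 6 genes entered the main test. Values for those that did not are from the same fit without the filter, over 24593 genes. There, the log2 fold change of crhr1 was -0.32 (SE 0.836, adjusted p = 0.873) in dhps against control, 0.30 (SE 0.803, adjusted p = 0.950) in eif5a1/2 against control and 0.62 (SE 0.795, adjusted p = 0.814) in eif5a1/2 against dhps. Differences of several-fold in crhr1 could not be detected at this depth. The sign in dhps against control turned with library totals alone (0.023).

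The ligands were low in all groups. The CRH gene crhb had 9, 4 and 4 reads in dhps embryos, 3, 4 and 0 in eif5a1/2 embryos, and 3, 2 and 3 in control embryos. Its highest library was dhps 1, which was also the highest for crhr2, and the groups did not pass the test in any comparison. For crhb, the fitted log2 fold change in the unfiltered fit was 0.68 (SE 0.788, adjusted p = 0.653) in dhps against control, -0.35 (SE 0.877, adjusted p = 0.947) in eif5a1/2 against control and -1.03 (SE 0.802, adjusted p = 0.706) in eif5a1/2 against dhps. The second CRH gene of zebrafish, crha, and the urocortin gene ucn2 were not analysed here.

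The urocortin-like ligand uts1, which encodes urotensin 1, a peptide that binds both receptors in fish, was by TPM the most abundant of the 3 ligands measured. It had 20, 20 and 22 reads in dhps embryos, 13, 15 and 14 in eif5a1/2 embryos, and 14, 19 and 13 in control embryos. On the CPM scale the means were 1.07 ± 0.0797 in dhps embryos, 0.863 ± 0.152 in eif5a1/2 embryos and 1.00 ± 0.00688 in control embryos (SD, n = 3 each). Uts1 differed by a log2 fold change of 0.09 (SE 0.278, 95% interval -0.587 to 0.775, adjusted p = 0.851) in dhps against control, so a difference of the size of crhr2's lay outside the interval. It was -0.23 (SE 0.286, adjusted p = 0.832) in eif5a1/2 against control, and in eif5a1/2 against dhps it was -0.32 (SE 0.280, adjusted p = 0.654). On the TPM scale, which has no TMM step, uts1 was 0.51 to 0.64 in dhps embryos, 0.30 to 0.46 in eif5a1/2 embryos and 0.27 to 0.49 in control embryos.

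A further ligand gene, ucn3l, encodes a urocortin 3 peptide, which in mammals is selective for CRHR2. It had 2, 4 and 2 reads in dhps embryos, 0, 4 and 2 in eif5a1/2 embryos, and 3, 2 and 1 in control embryos. All groups overlapped, and its log2 fold change in dhps against control was 0.07 with an adjusted p of 0.982 in the unfiltered fit. None of the 3 ligand transcripts passed the test in dhps against control, and for crhb and ucn3l the depth leaves several-fold differences undetectable.

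The binding protein crhbp was by TPM among the 3 most abundant of these genes in every group. It had 55, 48 and 49 reads in dhps embryos, 47, 59 and 74 in eif5a1/2 embryos, and 36, 54 and 44 in control embryos. In CPM the means were 2.62 ± 0.0962 in dhps embryos, 3.68 ± 0.941 in eif5a1/2 embryos and 2.94 ± 0.432 in control embryos (SD, n = 3 each). The log2 fold change of crhbp in dhps against control was -0.16 (SE 0.236, 95% interval -0.741 to 0.412, adjusted p = 0.681). Its sign in that comparison turned when library totals alone were used (0.21) and when the length slope was a covariate (0.018). Crhbp differed by 0.32 (SE 0.235, adjusted p = 0.744) in eif5a1/2 against control. It differed by 0.49 (SE 0.233, adjusted p = 0.383) in eif5a1/2 against dhps, with each eif5a1/2 library above each dhps library in CPM, as for 10.8% of genes. The exact permutation p of that difference was 0.1, the smallest possible with 3 libraries a group. Without eif5a1/2 2 and control 2 it was 0.67 with an adjusted p of 0.0443, and over all alternatives the adjusted p ran between 0.0443 and 0.815.

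The pituitary precursor pomca encodes the proopiomelanocortin from which adrenocorticotropic and melanocyte-stimulating hormones are cut. It had 7, 7 and 9 reads in dhps embryos, 2, 1 and 1 in eif5a1/2 embryos, and 3, 2 and 0 in control embryos. Each dhps library thus lay above each of the other libraries, at 0.32 to 0.42 TPM in dhps embryos, against 0.04 to 0.08 TPM in eif5a1/2 embryos and 0 to 0.11 TPM in control embryos. These are 23, 4 and 5 reads in all in dhps, eif5a1/2 and control embryos. In the unfiltered fit the log2 fold change of pomca in dhps against control was 1.80 (SE 0.765, 95% interval -0.0699 to 3.67), with an unadjusted p of 0.0376 and an adjusted p of 0.298. Its value was -2.18 (SE 0.789, 95% interval -4.11 to -0.254) in eif5a1/2 against dhps, with an unadjusted p of 0.0179 and an adjusted p of 0.315. Neither passed the threshold, and the exact permutation p of both was 0.1, the smallest possible. Pomca differed by -0.38 (SE 0.932, adjusted p = 0.944) in eif5a1/2 against control. Of all genes with at least 1 read, 12.8% likewise had every dhps library above every control library, and 9.08% had every eif5a1/2 library below every dhps library. A listed gene that overlaps pomca in a reference annotation, LOC100537549, had 3 reads over all 9 libraries.

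The second precursor gene, pomcb, did not share that pattern on the CPM scale. It had 65, 49 and 43 reads in dhps embryos, 26, 27 and 36 in eif5a1/2 embryos, and 28, 33 and 41 in control embryos. In CPM the means were 2.70 ± 0.493 in dhps embryos, 1.85 ± 0.517 in eif5a1/2 embryos and 2.31 ± 0.773 in control embryos (SD, n = 3 each). For pomcb, the fitted log2 fold change was 0.24 (SE 0.317, adjusted p = 0.659) in dhps against control, -0.32 (SE 0.325, adjusted p = 0.798) in eif5a1/2 against control and -0.56 (SE 0.320, adjusted p = 0.477) in eif5a1/2 against dhps. On the TPM scale, which has no TMM step, pomcb lay at 3.05 to 4.78 in dhps embryos. This was above the 1.61 to 2.29 of eif5a1/2 embryos and the 1.61 to 2.25 of control embryos. For CPM by library totals alone, another scale without TMM, the median gene shifted by 0.36 in dhps against control and by -0.19 in eif5a1/2 against dhps (log2). The shift of the median gene in TPM was not measured.

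**Figure D2:**
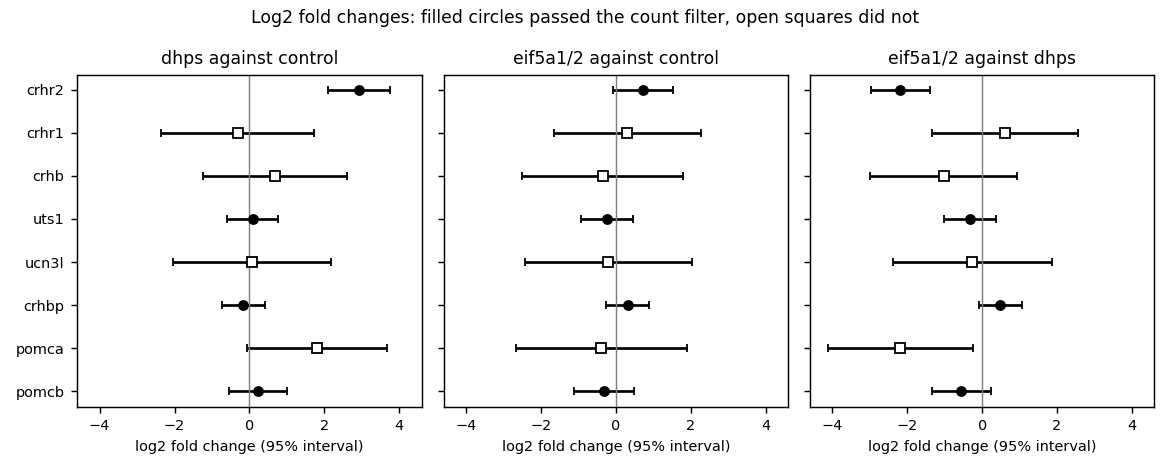
Log2 fold change (horizontal axis) of the 8 genes in dhps against control, eif5a1/2 against control and eif5a1/2 against dhps, with 95% intervals. Filled circles passed the count filter and open squares come from the unfiltered fit; crhr2 stands at 2.93, 0.74 and -2.19, and its values in the panels for dhps against control and eif5a1/2 against dhps are a description. The intervals of crhr1, crhb and ucn3l are wide in every panel.

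Excluding crhr2, 0 of the 5 other genes of the set were called in any comparison by edgeR's quasi-likelihood test, 2 of them (crhbp and uts1) with the filter and 3 without it (without it, 0.813% of genes were called in dhps against control, 0.0895% in eif5a1/2 against control and 0.976% in eif5a1/2 against dhps), and DESeq2 and limma-voom called neither crhbp nor uts1. Of those, pomca alone had an unadjusted p under 0.05, in dhps against control and in eif5a1/2 against dhps. The authors' deposited table, made from the same libraries, gives crhr2 a log2 fold change of 2.94 in dhps against control, 0.752 (q-value 1) in eif5a1/2 against control and -2.18 in eif5a1/2 against dhps. For pomca the authors' deposited table gives 1.88 (q-value 0.412) in dhps against control.

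By mean TPM the order was crhr2 at 33.8, pomcb at 3.75, crhbp at 2.05, uts1 at 0.583, pomca at 0.360, crhb at 0.317, ucn3l at 0.123 and crhr1 at 0.0167 in dhps embryos. In eif5a1/2 embryos crhr2 led at 6.15, followed by crhbp at 2.26, pomcb at 1.97, uts1 at 0.373, crhb at 0.123, ucn3l at 0.0900, pomca at 0.0567 and crhr1 at 0.0233. In control embryos crhr2 had 3.18, pomcb 2.01, crhbp 1.52, uts1 0.363, crhb 0.120, ucn3l 0.0800, pomca 0.0667 and crhr1 0.0133. In dhps embryos the ranges of crhr2, pomcb, crhbp and uts1 did not overlap one another, whereas pomca at 0.32 to 0.42 and crhb at 0.22 to 0.51 did. In control embryos the ranges of crhr2, pomcb and crhbp overlapped, at 1.43 to 5.94, 1.61 to 2.25 and 1.17 to 2.03, so their order there is within the spread.

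Across the 9 libraries the log2 CPM of crhr2 correlated with that of pomca at r = 0.781, crhb at 0.326, uts1 at 0.267, ucn3l at 0.145, crhbp at -0.391 and crhr1 at -0.422. These are descriptions over libraries that share 3 groups and the same scaling. The likeness of 12261 named genes with a mean CPM of at least 1 to crhr2 was ranked by the same r. The median r was -0.05, with 111 genes above 0.9 and 187 below -0.9. The 5 most alike were lpcat2 (r = 0.982), a lysophosphatidylcholine acyltransferase, yif1a (0.979), a protein of transport between endoplasmic reticulum and Golgi, cpt1ab (0.976), a carnitine palmitoyltransferase of mitochondrial fatty acid import, grasp (0.974), a scaffold protein, and gga1 (0.971), an adaptor of Golgi-to-endosome sorting. The 5 most unlike were eea1 (-0.988), an early endosome tether, eno3 (-0.983), the muscle enolase, hdac10 (-0.981), a deacetylase, ascl1b (-0.978), a proneural transcription factor, and drp2 (-0.976), a dystrophin-related protein.

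None of the 5 most alike matched crhr2 in size. The CPM of lpcat2 was 14.2, 10.5 and 12.2 in dhps embryos, 5.11, 7.31 and 5.27 in eif5a1/2 embryos, and 3.58, 5.56 and 3.26 in control embryos. Like crhr2 it was highest in dhps 1, and control 2 was the highest control. Its log2 fold change in dhps against control was 1.56, against 1.32 for grasp, 0.83 for yif1a, 0.65 for cpt1ab and 0.34 for gga1. On the other side, eea1 had 7.25, 8.86 and 7.85 CPM in dhps embryos, 18.2, 15.5 and 18.0 in eif5a1/2 embryos, and 20.9, 16.6 and 25.4 in control embryos. The log2 fold change in dhps against control was -1.39 for eea1, -2.10 for eno3, -0.96 for hdac10, -1.15 for ascl1b and -1.27 for drp2. These genes were picked for their likeness to a gene chosen from the same contrast, so their values are a description.

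**Figure D3:**
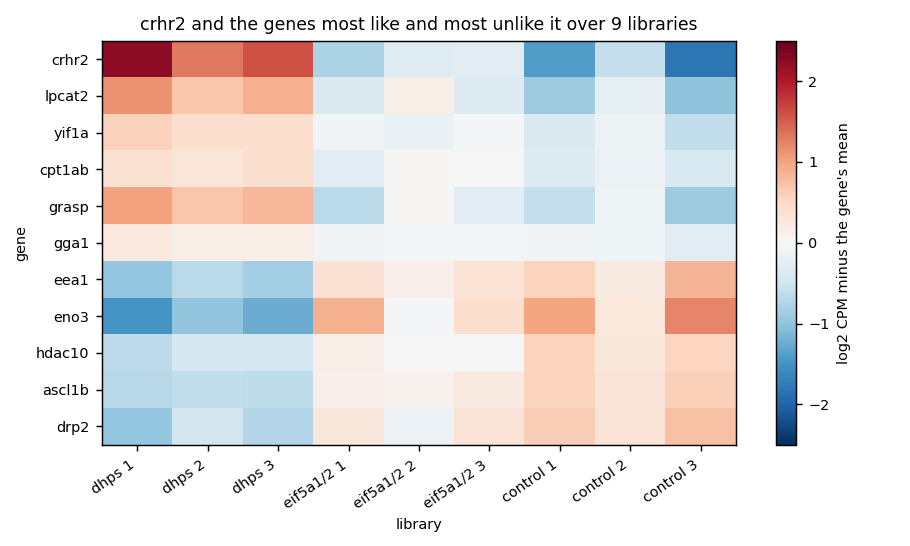
Log2 CPM minus each gene's mean over the 9 libraries (colour), for crhr2, the 5 genes with the highest and the 5 with the lowest correlation to it (rows), by library (columns). In the dhps columns crhr2 and its 5 most like genes are above their means and the 5 most unlike are below; control 2 lies closer to the dhps columns than control 1 and control 3 for crhr2, lpcat2 and eea1.

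The genes described beside crhr2 did not show its pattern. In the gene order of the reference assembly GRCz12tu, used for order alone, sox3 precedes crhr2, and inppl1b and arr3b follow it. In dhps against control their log2 fold changes were -0.34 for sox3 (adjusted p = 0.205), -0.09 for inppl1b (adjusted p = 0.857) and -0.07 for arr3b (adjusted p = 0.928), by edgeR's quasi-likelihood test. The nearest to a difference was sox3, a transcription factor of neural progenitors, with 158, 185 and 174 CPM in dhps embryos, 174, 205 and 218 in eif5a1/2 embryos, and 227, 217 and 209 in control embryos. Every dhps library of sox3 lay below every control library, opposite to crhr2, as for 15.7% of genes. Their values in eif5a1/2 against control were -0.13, -0.19 and -0.83 for sox3, inppl1b and arr3b, with adjusted p-values of 0.788, 0.858 and 0.629. A predicted protein-coding gene, LOC141377546, overlaps the span of crhr2 in that assembly and was not analysed here. Overlapping genes can share reads, and the sources used here do not say whether counting used strand.

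Further genes of the stress axis were taken from 7 lists with 140 genes, of which 126 were in the table. Without crhr2, 74 of 125 such genes passed the filter. In dhps against control 1 of the 74 rose (fosab), 2 fell (otpa and otpb) and 71 did not pass, against 0.628% called higher and 0.699% called lower over all genes, and 13 had an unadjusted p under 0.05, where 19.7% of all genes did. The median log2 fold change was 0.05 over the 74 genes and 0.00259 over all genes. For eif5a1/2 against control edgeR called 0 of the 74, DESeq2 0 and limma-voom 0, with 6 at an unadjusted p under 0.05 (9.1% of all genes), while the paired fit of these groups alone called 1, adcy6b. This adenylyl cyclase gene stood at 1.096 (log2) without the pairing (SE 0.416, adjusted p = 0.463). In eif5a1/2 against dhps 2 rose (pck1 and otpa) and 1 fell (fosab), against 0.975% higher and 0.851% lower over all genes.

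The cyclic AMP signalling list covered the pathway downstream of the receptor. It held G proteins, adenylyl cyclases, protein kinase A, CREB and its co-factors, phosphodiesterases, arrestins and receptor kinases. It also held the transcription factor genes fosab, nr4a1 and nr4a3, which belong to none of these classes. The 28 tested genes of the list had a median log2 fold change of 0.11 in dhps against control (0.00259 over all genes). Of the 28, 0 were called lower and 1 higher, against 0.699% and 0.628% over all genes. That gene was fosab, the immediate early transcription factor c-Fos, whose mammalian counterpart is induced by cyclic AMP and by many other stimuli. Its CPM was 14.8, 14.3 and 14.4 in dhps embryos, 3.71, 2.44 and 3.08 in eif5a1/2 embryos, and 4.36, 4.56 and 5.59 in control embryos. Fosab rose by 1.58 in dhps against control (log2, SE 0.171, edgeR adjusted p = 0.00298) and was lower in eif5a1/2 against dhps (-2.25, SE 0.177, adjusted p = 0.000251). Both calls were kept in all 9 fits that left out 1 library. Its log2 fold change in eif5a1/2 against control was -0.66 (SE 0.181, adjusted p = 0.278), with every eif5a1/2 library below every control library, as for 6.65% of genes. With the length slope as a covariate it passed the threshold there (-0.62, adjusted p = 0.0434), and over all alternatives the adjusted p ran between 0.0434 and 0.723. So fosab and crhr2 were both highest in dhps embryos but lay on opposite sides of control in eif5a1/2 embryos, where neither passed the threshold in the main test.

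Among 12 tested genes of hypothalamic neuroendocrine neurons, the median in dhps against control was -0.14 (0.00259 over all genes). Over all genes 0.699% were called lower, and the 2 genes called here, both lower, were the orthopedia paralogs. Of the 12 genes, 4 had a positive log2 fold change, the largest at 2.07, and 0 were called higher. These homeodomain factors are needed in zebrafish to form neuroendocrine neurons of the preoptic area, the region that holds CRH neurons. The CPM of otpa was 3.97, 4.802 and 3.35 in dhps embryos, 7.35, 6.94 and 7.09 in eif5a1/2 embryos, and 9.80, 7.86 and 9.79 in control embryos. Otpa fell by 1.18 in dhps against control (log2, SE 0.169, edgeR adjusted p = 0.011) and was 0.82 higher in eif5a1/2 against dhps (SE 0.169, adjusted p = 0.0468). The CPM of otpb was 5.91, 6.30 and 6.65 in dhps embryos, 10.6, 7.88 and 10.1 in eif5a1/2 embryos, and 11.1, 13.5 and 13.0 in control embryos. Otpb fell by 1.00 in dhps against control (log2, SE 0.150, edgeR adjusted p = 0.014). In dhps against control otpa lost its call without control 1, control 3, dhps 1 or dhps 3 (adjusted p 0.0677 to 0.0776), and otpb lost it without control 3, dhps 1, dhps 2 or dhps 3 (0.0714 to 0.0885). With library totals alone both lost it too, at -0.79 for otpa and -0.64 for otpb. On the TPM scale, which has no TMM step, the groups overlapped for both genes. There otpa was 1.56 to 1.87 in dhps embryos, 1.42 to 4.64 in eif5a1/2 embryos and 1.8 to 3.05 in control embryos. Otpb was 3.26 to 3.6 in dhps embryos, 3.36 to 4.97 in eif5a1/2 embryos and 3.55 to 6.88 in control embryos. The summed CPM of 6 neuron markers was 243 to 251 in dhps embryos, 221 to 275 in eif5a1/2 embryos and 302 to 379 in control embryos. In CPM every eif5a1/2 library of otpa and otpb lay below every control library, as for 6.65% of genes. In eif5a1/2 against control otpa stood at -0.36 and otpb at -0.40 (log2, edgeR adjusted p = 0.567 and 0.445). For both genes every eif5a1/2 library also lay above every dhps library in CPM, as for 10.8% of genes. The part of the neuron markers in the otpa and otpb results was not tested.

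The remaining lists gave no call in dhps against control with edgeR. The 8 tested genes of the pituitary and melanocortin list had a median of -0.07, 3 of them with an unadjusted p under 0.05 (19.7% of all genes). Limma-voom called 0 of them and DESeq2 called 1 lower, where DESeq2 called 902 over all genes and edgeR 226. Prolactin (prl), a pituitary hormone, had 3, 6 and 8 reads in dhps embryos, 7, 20 and 23 in eif5a1/2 embryos, and 22, 19 and 24 in control embryos. Its dhps libraries lay below all control libraries, as for 15.7% of genes. The log2 fold change of prl was -2.29 (SE 0.501, adjusted p = 0.0653), in the opposite direction to pomca. It passed the threshold without control 2 (adjusted p = 0.0391) and without eif5a1/2 2 (0.0453), and over all alternatives the adjusted p ran between 0.00215 and 0.255. The 8 tested interrenal steroid synthesis genes had a median of 0.24, with 2 at an unadjusted p under 0.05 (19.7% of all genes). Of these, star, which brings cholesterol into mitochondria for steroid synthesis, had 14, 10 and 7 reads in dhps embryos and 16, 27 and 18 in control embryos, a log2 fold change of -1.30 (SE 0.390, adjusted p = 0.142). The cortisol-inactivating enzyme gene hsd20b2 stood at 1.13 (adjusted p = 0.248). DESeq2 and limma-voom called 0 genes of this list.

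The 12 tested glucocorticoid response genes had a median of -0.06 in dhps against control, with 2 at an unadjusted p under 0.05 (19.7% of all genes). EdgeR, DESeq2 and limma-voom each called 0 of them. Of this list, pck1, the gluconeogenic enzyme phosphoenolpyruvate carboxykinase, was called in eif5a1/2 against dhps. It had 7.58, 10.5 and 12.4 CPM in eif5a1/2 embryos and 5.96, 4.70 and 4.50 in dhps embryos, a log2 fold change of 1.01 (SE 0.206, adjusted p = 0.0449). The calls of pck1 and otpa in eif5a1/2 against dhps were fragile, since pck1 kept its call in 3 of the 9 fits that left out 1 library (without control 2, eif5a1/2 1 or eif5a1/2 2) and otpa in 2 of them (without control 2 or eif5a1/2 2). Other class B peptide hormone receptors, the relatives of crhr2, were mostly too low to test. Of 16 in the deposited table, 4 were tested, and none was called by edgeR, DESeq2 or limma-voom in dhps against control. An unadjusted p under 0.05 was reached by 0 of the 4 (19.7% of all genes). Among them gcgra, a glucagon receptor, was at 0.26 (adjusted p = 0.435) and pth2r, a parathyroid hormone receptor, at 0.81 (adjusted p = 0.463). Of the 12 below the filter, 3 had every dhps library above every control library. Over all genes with at least 1 read, 12.8% did so. The 3 are named for that, after their values were seen, so their values are a description with no test. The second glucagon receptor gene, gcgrb, had 10, 2 and 7 reads in dhps embryos, 3, 17 and 8 in eif5a1/2 embryos, and 0, 1 and 0 in control embryos. The PACAP receptor gene adcyap1r1b had 11, 4 and 7 reads in dhps embryos, 1, 20 and 1 in eif5a1/2 embryos, and 0, 2 and 0 in control embryos. Unlike crhr2, both were highest in eif5a1/2 2, and the parathyroid hormone receptor gene pth1ra had 1 read in each dhps library and 0 in the others.

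**Figure D4:**
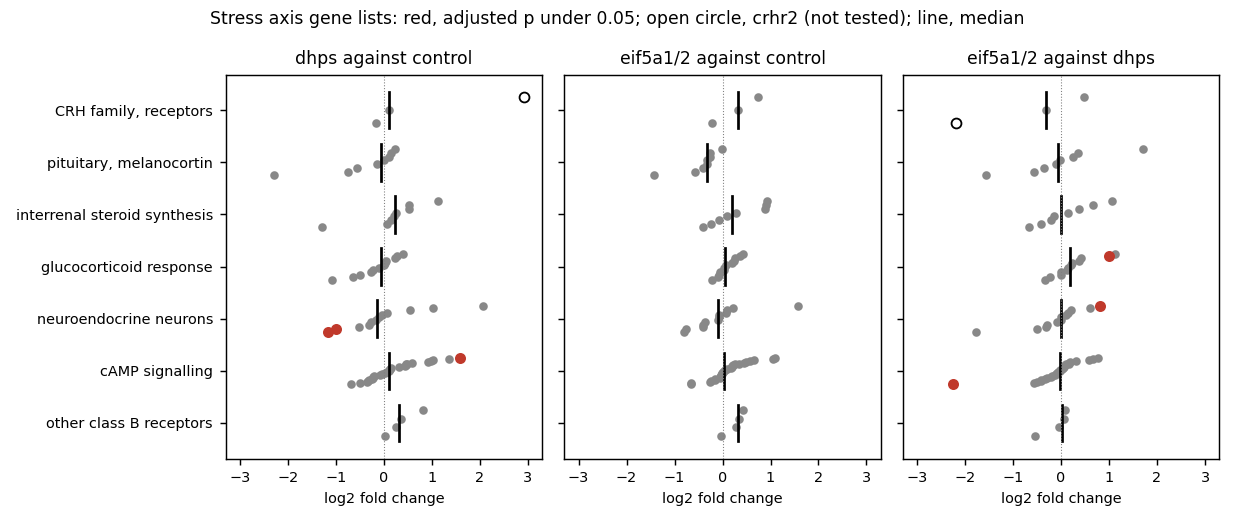
Log2 fold change (horizontal axis) of each tested gene of the 7 stress axis lists (rows) in dhps against control, eif5a1/2 against control and eif5a1/2 against dhps, with list medians as vertical lines. Red points have an adjusted p under 0.05 (fosab, otpa and otpb in dhps against control; pck1, otpa and fosab in eif5a1/2 against dhps), and the open circle is crhr2, at 2.93 and -2.19 where it was not tested.

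Summed levels of cell type markers were set beside these values. Of 12 cell type marker lists, with 62 of 63 genes found and all 62 detected, the summed CPM was higher without overlap in dhps than in control embryos for 2 and lower for 6. Of all single genes tested, 15.2% were higher and 15.7% lower without overlap there. No such share was taken for sums of lists. In eif5a1/2 against control the summed CPM was higher without overlap for 0 lists and lower for 2 (neuron and pronephros). Of all single genes tested, 6.65% were lower without overlap in that comparison. Notochord markers summed to 75.6 to 97.0 in dhps embryos, 40.6 to 76.1 in eif5a1/2 embryos and 42.0 to 70.0 in control embryos. Macrophage markers summed to 14.4 to 18.5 in dhps embryos, 13.97 to 19.01 in eif5a1/2 embryos and 10.4 to 14.3 in control embryos. Heart markers, from a tissue that expresses CRHR2 in mammals, summed to 106.8 to 145.5 in dhps embryos and 146.4 to 255.3 in control embryos, opposite to crhr2. The heart and macrophage ranges of dhps and control embryos nearly touched. Muscle markers summed to 13150 to 13980 in dhps embryos and 15660 to 22050 in control embryos. In eif5a1/2 embryos heart markers summed to 124 to 220.5 and muscle markers to 9906 to 18900, both overlapping control embryos. Yolk layer, lens and eye, pronephros and neuron markers also summed lower in dhps than in control embryos. All these sums are in CPM scaled by TMM and were not taken on another scale. With library totals alone the median gene shifted by 0.36 in dhps against control (log2). No single marker of the 60 tested was called by edgeR in dhps against control, and 14 had an unadjusted p under 0.05 (19.7% of all genes). Limma-voom called 0 and DESeq2 called 5 lower. Over all genes DESeq2 called 902 in this comparison, where edgeR called 226. The part of these differences in the crhr2 result was not tested.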

How the data were processed

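Polyadenylated RNA of whole embryos was measured in 9 libraries, 3 per group, assigned by their titles. The authors deposited expected counts per gene, per the file headers, of which 91.39% to 93.95% per library were whole (tolerance 1e-06). TPM, rounded to 2 decimals, stand beside them in the deposited table. A further table by the authors gives log2 fold changes with p-values and q-values for each comparison, and the −log10 of the q-value for dhps against control, per the file headers. The build was GRCz11, per the submitters' processing notes. The sources used here do not name the aligner, the counter, the annotation, the strand setting or the test of the deposited comparisons.

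Counts were rounded, filtered with filterByExpr (17031 genes left) and scaled by TMM. All libraries entered 1 model with 3 groups, tested by edgeR's quasi-likelihood method (R 4.3.3, edgeR 4.0.16), with 6 residual degrees of freedom and a common biological coefficient of variation of 0.225. Benjamini-Hochberg adjustment ran over all tested genes, a call is an adjusted p under 0.05, and adjusted p-values given without a tool are edgeR's. SEs come from the F statistic, 95% intervals are approximate and use 6 degrees of freedom, and log2 CPM used a prior count of 2. DESeq2 (1.42.0) and limma-voom (limma 3.58.1) were alternatives, with other scalings and filters, a replicate block, the compared groups fitted alone and each library left out. The length slope, the trend of a library's deviation from the mean log2 level with relative transcript length, taken from the ratio of counts to TPM, was a covariate in a further alternative.

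Same-numbered eif5a1/2 and control libraries deviated from their group means together (r = 0.403, 0.760 and 0.318). The labels do not state that these libraries were paired, and the main test uses no pairing. A paired fit of these groups alone was added after the data were seen. The members and the lists were chosen with earlier results of these data known. Named by rule were the 6 members, the rest of the CRH family list, genes called in a list or else up to 3 with the smallest p, the 5 genes most and the 5 least like crhr2, its neighbours, and the morpholino targets; 1 gene that the rule names is not reported here. The gene pomcb and the overlapping gene of pomca were added for comparison. Of the gene IDs, 22941 were found in the NCBI table of GRCz12tu, used for names and gene order.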

Additional observations from a re-analysis of the deposited data

How the results depend on the processing

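The log2 fold change of crhr2 kept its direction in every alternative run in all 3 comparisons, at 2.54 to 3.35 in dhps against control, 0.51 to 1.16 in eif5a1/2 against control and -2.38 to -1.89 in eif5a1/2 against dhps. Leaving out 1 library gave 2.63 to 3.35, 0.51 to 1.16 and -2.37 to -1.89. The number of genes called over the whole table moved much more. In dhps against control (226) it was 94 with library totals alone, 6295 without control 2 and eif5a1/2 2, 919 with the length slope, 902 with DESeq2, and 46 (without dhps 3) to 844 (without control 2) with 1 library left out. In eif5a1/2 against control (26) it was 13 with library totals, 14 with the replicate block, 136 without both libraries, 736 with the length slope, 5 with the compared groups alone, 206 with DESeq2, 351 in the paired fit of these groups alone, which was chosen after seeing the data, and 5 (without eif5a1/2 3) to 19 (without eif5a1/2 1) with 1 left out. In eif5a1/2 against dhps (311) it was 138, 188 with the replicate block, 4858, 1578, 170 and 811 under the same alternatives, and 73 (without dhps 1 or dhps 3) to 864 (without eif5a1/2 2). The cause was not tested. Stress axis genes called without crhr2 are given beside these counts over all genes. In dhps against control (3, and 1 to 5 with 1 library left out) they numbered 1 with library totals (94 over all genes). They numbered 21 without both libraries (6295 over all genes) and 8 with the length slope (919 over all genes). In eif5a1/2 against control (0, and 0 to 0) they numbered 3 with the length slope (736 over all genes) and 1 in the paired fit (351 over all genes). In eif5a1/2 against dhps they were 3 (1 to 5 with 1 library left out). With library totals, no filter, the replicate block or the compared groups alone they were 1. They were 16 without both libraries (4858 over all genes) and 6 with the length slope (1578 over all genes). Of the low members, crhr1 turned to 0.023 in dhps against control with library totals, and in eif5a1/2 against control to -0.087 without both libraries and to -0.055 without eif5a1/2 2 (range -0.055 to 0.62). In that comparison crhb turned to 0.20 without eif5a1/2 3 (-0.77 to 0.20) and pomca to 0.39 without control 1 (-0.94 to 0.39). Crhbp turned to 0.21 with library totals and 0.018 with the length slope in dhps against control, and was 0.67 without both libraries in eif5a1/2 against dhps. Among other named genes, dhps was -0.027 in eif5a1/2 against control without control 1 (-0.027 to 0.10), eif5a 0.057 in dhps against control with library totals, and gcgra -0.089 in eif5a1/2 against dhps with library totals. Pth1rb was -0.37 in dhps against control with the length slope, -0.27 in eif5a1/2 against control without eif5a1/2 2 (-0.27 to 1.24), and in eif5a1/2 against dhps -0.061 with library totals, -0.11 with the replicate block, -0.10 without dhps 2 and -0.62 without eif5a1/2 2 (-0.62 to 0.33). Pth2r was -0.0097 with limma-voom, -0.013 without control 3 and -0.50 without eif5a1/2 1 in eif5a1/2 against control (-0.50 to 0.62). Same-numbered libraries did not deviate together in dhps against control (r = -0.337, -0.413 and 0.0988) or eif5a1/2 against dhps (-0.401, -0.286 and 0.121). The labels state no pairing there either. Apart from the counts given, the block changed no call of a member. A robust quasi-likelihood fit, also added after seeing the data, kept each member on its side of the threshold. The low read counts of crhr1, crhb, ucn3l and pomca limit their precision.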

Other observations

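The spread of crhr2 between libraries of 1 group was wide for its level. Its pooled within-group SD was 0.47 on the log2 scale, against a median of 0.19 over the 200 genes nearest to it in mean log2 CPM, of which 95.5% had a smaller SD. The coefficient of variation of crhr2 was 33.6% in dhps embryos, 19.0% in eif5a1/2 embryos and 43.9% in control embryos.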
